A study of Mus musculus with 55 samples.

Results

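The nuclear receptors through which the liver controls xenobiotic and lipid metabolism were described here across inbred mouse lines. The 9 members were taken by gene symbol from the 37620 genes of the deposited tables: Nr1i2, Nr1i3, Ppara, Rxra, Hnf4a, Nr5a2, Nr1h3, Thrb and Esr1. The study sequenced polyadenylated liver RNA from 55 male, naive mice of 29 lines of the Collaborative Cross (CC), a panel of recombinant inbred lines bred from 8 founder strains. Line was the only group. No treatment was given, so the values are basal levels, and the mice were 8 to 11.9 weeks old and weighed 12.8 to 38 g. 8 lines were represented by 1 mouse, 16 lines by 2 and 5 lines by 3, so that 47 mice of 21 lines had a line mate. Line mates are separate animals of one inbred genotype.

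Nuclear receptors are transcription factors whose activity is set by small lipophilic molecules. The liver uses them to sense foreign compounds, fatty acids, oxysterols and hormones, and to match the levels of drug metabolising enzymes, transporters and lipid enzymes to that load. Many of them bind DNA as a heterodimer with a retinoid X receptor. PXR (pregnane X receptor, encoded by Nr1i2) and CAR (constitutive androstane receptor, Nr1i3) are the xenobiotic sensors. PPARα (Ppara) responds to fatty acids and drives their oxidation, LXRα (Nr1h3) responds to oxysterols and controls cholesterol efflux and lipogenesis, and RXRα (Rxra) is the shared partner. HNF4α (Hnf4a) maintains the hepatocyte programme, LRH-1 (Nr5a2) acts in bile acid and cholesterol metabolism, and the thyroid hormone receptor β (Thrb) and estrogen receptor α (Esr1) are hormone receptors.

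The libraries held 20542671 to 33953036 estimated fragments on genes (median 27700357). The 4 hepatocyte markers found (of 5 listed) summed to 18419 to 69048 FPKM (fragments scaled by transcript length and by the total of the library) in every liver, while the 5 lymphocyte markers summed to at most 10.4 FPKM. Line labels were checked by the most similar other mouse, using Spearman's correlation over 15285 genes. It was a line mate for 41 of 47 mice. None of the 5 mice of IL-1052 and IL-2750 was nearest to a mouse of its own line: both IL-1052 mice were nearest to IL-2750, and all 3 IL-2750 mice to IL-1052. The results below were therefore also computed without these lines. Because the tissue is a bulk sample, fewer cells of a type and less RNA per cell cannot be told apart.

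All 9 receptors were expressed in every mouse. On the FPKM scale, which corrects for length and so allows levels of different genes to be set side by side, the medians of the line means fell in the order Hnf4a, Rxra, Nr1i3, Nr1h3, Ppara, Nr1i2, Nr5a2, Thrb and Esr1. Hnf4a stood above Rxra in 29 of 29 lines, by 0.82 ± 0.32 on the log2(FPKM + 1) scale (SD over lines). The neighbours that could not be separated were Nr1i3 and Nr1h3, with a difference of 0.11 ± 0.61 and Nr1i3 the higher in 19 of 29 lines. Ppara and Nr1i2 were also within the spread over lines, at 0.45 ± 0.46. Each of the other neighbouring pairs differed by more than its SD over lines and kept its order in 27 to 29 of the 29 lines. This order was read from the values themselves and was not tested.

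**Figure D1:**
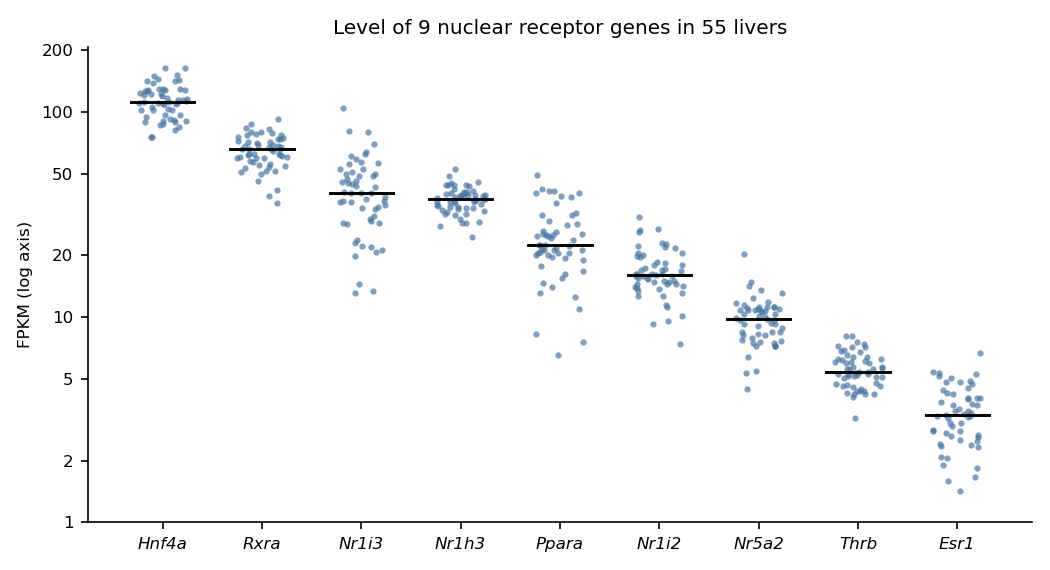
Level of each receptor in each of the 55 livers, in FPKM on a logarithmic axis, 1 point per mouse, with a bar at the median. Hnf4a ranges from 75.1 to 163 FPKM and Esr1 from 1.43 to 6.67 FPKM, and the widest spreads relative to the median are those of Nr1i3 and Ppara.

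All 9 receptors differed among the 21 lines with line mates, in the quasi-likelihood F test of edgeR with Benjamini-Hochberg adjustment over the 15285 genes tested. In the same test 88.5% of all genes were called, so that a call by itself does not set the receptors apart from other liver genes. The share of the variance that lay between lines was therefore given as the intraclass correlation (ICC), computed on normal scores of FPKM over all 55 mice. An ICC of 1 means that line mates are identical relative to the differences among lines, and 0 means that they are no more alike than mice of other lines. Its error is a jackknife SE over lines.

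Nr1i2 (ENSMUSG00000022809; mm9, minus strand of chromosome 16, 38248409 to 38294910) encodes PXR, which is activated by a wide range of drugs and steroids. Its lowest, median and highest mouse had 7.42, 16.0 and 30.6 FPKM. Line means averaged 17.3 ± 4.42 FPKM (SD, n = 29), against a spread between line mates of 2.73 FPKM. The lowest line was IL-4457, whose 2 mice had 7.42 and 9.60 FPKM, and the highest was IL-2126, whose single mouse had 30.6 FPKM. The next highest, IL-3348, had 25.9 and 27.0 FPKM. The next lowest, IL-670, had 9.25, 11.5 and 13.8 FPKM and so overlapped IL-4457. The lines differed with an adjusted p of 0.000503 (edgeR), and the ICC was 0.576 ± 0.167.

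Nr1i3 (ENSMUSG00000005677; mm9, plus strand of chromosome 1, 173144101 to 173150832) encodes CAR, which is active without a bound ligand and moves into the nucleus after phenobarbital-like signals. On the FPKM scale it varied the most of the 9. Mice ran from 13.1 through a median of 40.1 to 104 FPKM. Line means averaged 44.0 ± 18.6 FPKM (SD, n = 29), with a spread between line mates of 11.1 FPKM. Both mice of IL-519 were low, at 13.1 and 14.4 FPKM. IL-4457 was next, at 13.4 and 19.8 FPKM. The 2 highest lines were IL-4032 (104 FPKM) and IL-2126 (80.7 FPKM), each with 1 mouse. Line mates were far apart in IL-2680 (29.55 and 69.59 FPKM) and IL-785 (36.34, 58.95 and 80.11 FPKM). The lowest and highest line means were 7.58-fold apart, with an adjusted p among lines of 0.000119 (edgeR) and an ICC of 0.573 ± 0.147. In CPM (fragment counts scaled to the library total) they were 6.89-fold apart, with IL-4457 the lowest. Those of Ppara were 8.00-fold apart in CPM.

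Ppara (ENSMUSG00000022383; mm9, plus strand of chromosome 15, 85565413 to 85633249) had 6.56, 22.4 and 49.3 FPKM in its lowest, median and highest mouse. Its line means averaged 24.9 ± 8.59 FPKM (SD, n = 29), close to the spread of 7.46 FPKM between line mates. Line mates were unlike in several lines. The 2 mice of IL-3912 had 24.9 and 42.3 FPKM, those of IL-2011 had 8.30 and 17.8 FPKM, and those of IL-1513 had 11.0 and 21.7 FPKM. In other lines they were close, as in IL-219 with 25.3 and 25.4 FPKM, and both mice of IL-4457 were low, at 6.56 and 7.59 FPKM. On the FPKM scale Ppara had the lowest ICC of the receptors, 0.395 ± 0.182, above 18.5% of 11284 expressed genes, but on log2 CPM its ICC was 0.634. The lines differed with an adjusted p of 0.000865 (edgeR), but without IL-4457 that p was 0.143 and the call was lost. This was the only receptor that lost its call in that setting.

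Rxra (ENSMUSG00000015846; mm9, plus strand of chromosome 2, 27531960 to 27618477), the heterodimer partner of PXR, CAR, PPARα, LXRα and the thyroid hormone receptors, varied less. Mice ran from 35.9 through 66.0 to 91.8 FPKM, and line means averaged 65.1 ± 10.5 FPKM (SD, n = 29) with 8.31 FPKM between line mates. The 2 mice of IL-4457 were the lowest, at 35.9 and 38.98 FPKM, and the next lowest line mean was that of IL-2126 at 50.8 FPKM, although single mice of IL-670 (41.8 FPKM) and IL-2750 (45.9 FPKM) came closer. IL-3348 was highest, at 75.4 and 87.0 FPKM. The adjusted p among lines was 0.000183 (edgeR) and the ICC 0.508 ± 0.158.

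Nr1h3 (ENSMUSG00000002108; mm9, minus strand of chromosome 2, 91024218 to 91042991), the oxysterol receptor LXRα, was the steadiest of the 9. Its lowest, median and highest mouse had 24.6, 37.4 and 52.7 FPKM, and the spread of the line means (37.6 ± 4.42 FPKM, SD, n = 29) hardly exceeded the 4.21 FPKM between line mates. The lowest line mean (IL-557, 1 mouse, 27.9 FPKM) and the highest (IL-2146, 45.1 FPKM) were 1.62-fold apart. The IL-2146 mean came from mice at 37.4 and 52.7 FPKM, of which the lower sat at the median of all mice. Lines differed with an adjusted p of 0.00798 (edgeR) and an ICC of 0.446 ± 0.135.

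Hnf4a (ENSMUSG00000017950; mm9, plus strand of chromosome 2, 163332544 to 163398646), which acts as a homodimer and maintains hepatocyte gene expression, was the most abundant of the 9. Mice ran from 75.1 through 112 to 163 FPKM, and line means averaged 116 ± 19.8 FPKM (SD, n = 29) with 13.6 FPKM between line mates. IL-2011 was lowest at 75.8 and 89.2 FPKM, and IL-4141 highest with its single mouse at 163 FPKM. IL-4457, which was the lowest line for Nr1i2, Ppara and Rxra, was the third highest for Hnf4a, at 149 and 151 FPKM. The adjusted p among lines was 0.000885 (edgeR), and the ICC was 0.551 ± 0.152.

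Nr5a2 (ENSMUSG00000026398; mm9, minus strand of chromosome 1, 138740161 to 138857004), whose product LRH-1 is an activator of bile acid synthesis genes, had 4.45, 9.83 and 20.3 FPKM in its lowest, median and highest mouse. Line means averaged 9.81 ± 2.40 FPKM (SD, n = 29), and line mates differed by 1.77 FPKM (SD). The single mouse of IL-2126 was lowest. The highest line was IL-1513, whose mice had 13.1 and 20.3 FPKM, and the ratio between these lines was 3.76. Lines differed with an adjusted p of 0.0029 (edgeR), and the ICC was 0.573 ± 0.123.

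The hormone receptors were the least abundant. Thrb (ENSMUSG00000021779; mm9, plus strand of chromosome 14, 18493474 to 18870602) had 3.22, 5.41 and 8.10 FPKM in its lowest, median and highest mouse. It ranged from IL-2146, with 3.22 and 4.21 FPKM, to IL-219, with 7.39 and 8.10 FPKM. Its line means averaged 5.67 ± 1.02 FPKM (SD, n = 29) against 0.680 FPKM between line mates, and its ICC of 0.617 ± 0.123 was the highest of the receptors on the FPKM scale (adjusted p among lines 0.0107, edgeR), but was 0.407 on log2 CPM. Esr1 (ENSMUSG00000019768; mm9, minus strand of chromosome 10, 5340927 to 5734948) had 1.43, 3.35 and 6.67 FPKM. It ranged from IL-3912, with 1.67 and 2.32 FPKM, to the single IL-2126 mouse at 5.35 FPKM, with an ICC of 0.509 ± 0.0883 and an adjusted p of 0.00166 (edgeR). Even Esr1 had at least 242 estimated fragments per mouse.

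The receptors did not rise and fall together as a whole. Over the 29 line means (log2 CPM, fragment counts scaled to the library total), 22 of the 36 receptor pairs had a positive Pearson's r, with a median r of 0.0630 and a range of -0.37 to 0.73. Of all genes, 45.9 to 53.1% were positive with each receptor that has a target list. After Ppara and Rxra, the highest r were 0.486 for Rxra with Nr1h3 and 0.450 for Nr1i2 with Rxra. The lowest was that of Nr1i2 with Nr5a2. Only Ppara and Rxra were called, in limma's test of each gene against the receptor (adjusted p = 0.00179 over all 15284 other genes, of which 9.03% were called against Ppara, and 0.00304 with the roles turned, where 3.98% were called against Rxra). Their r was 0.731 and rho 0.582 (permutation p = 1e-05, the smallest possible here, and 0.00123). None of the other 8 receptors had an unadjusted p under 0.05 with Esr1, beside 3.09% of all genes (limma). The relation of Ppara and Rxra leaned on the lowest lines, since r was 0.481 without IL-4457 and IL-2126. The adjusted p was then 0.276, and 0.0698 without IL-4457 alone.

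The line IL-4457 stood at an extreme for several of the receptors. Its mean was the lowest of 29 for Nr1i2, Ppara and Rxra, the second lowest for Nr1i3 and the third lowest for Nr5a2 and Nr1h3, while Thrb ranked 8, Esr1 13 and Hnf4a 27 of 29 from the lowest. IL-2126 had the opposite pattern for the xenobiotic sensors, being the highest line for Nr1i2 and second highest for Nr1i3, and it was also the lowest for Nr5a2 and second lowest for Rxra. It was represented by 1 mouse, with the fewest fragments of all (20542671). These lines were picked out from their values.

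Whether the receptors or their targets carried the larger line share of variance was examined with lists of genes known to respond to each receptor. The median ICC of the 9 receptors was 0.551 ± 0.110 (jackknife SE), beside 0.560 for the 11284 genes that reached 2 FPKM in any mouse (interquartile range 0.440 to 0.669). The 81 target genes that reached that level, of 85 listed, had a median ICC of 0.596 (interquartile range 0.480 to 0.681). Of these targets, 37 lay above the highest receptor, Thrb, and 50 above the receptor median, beside 4140 and 5891 of the 11284 genes. In the edgeR test 84 of 85 targets were called, beside 88.5% of all genes. The receptors and the genes at large thus had near-equal medians, and the target lists lay on both sides.

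The xenobiotic targets had the highest values. For the PXR targets the median ICC was 0.739, with 14 of 16 above the receptor median, and for the CAR targets 0.667, with 14 of 15. These lists share members such as Cyp2b10 and Por, so they are not separate evidence. Cyp3a11, the main PXR-induced cytochrome P450, had the highest ICC of its list at 0.805, from 515 FPKM in IL-2156 to 3889 FPKM in IL-2693. Gsta1, a glutathione S-transferase, had the lowest at 0.423. Among CAR targets the highest was Gstt1, another glutathione S-transferase, at 0.836, from 1.66 FPKM in IL-670 to 243 FPKM in IL-2680. Akr1b7, an aldose reductase family member, was the lowest at 0.407 and had at most 2.99 FPKM.

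The other target lists lay nearer to or below the receptors. PPARα targets had a median ICC of 0.498, with 9 of 21 above the receptor median. The lowest was Cpt2, a mitochondrial carnitine palmitoyltransferase (0.296, not called among lines, adjusted p = 0.114, edgeR). HNF4α targets had a median of 0.584, with 10 of 16 above, from Apob at 0.402 to Apoc3 at 0.731, both apolipoproteins of triglyceride-rich particles. LRH-1 targets had 0.494, with 3 of 8 above, LXRα targets 0.499, with 4 of 10, and thyroid hormone receptor targets 0.471, with 3 of 7. The sterol transporter Abcg5 was the lowest LRH-1 and LXRα target at 0.324, and the highest were Scarb1, the HDL receptor, at 0.772 and Pltp, the phospholipid transfer protein, at 0.654. The highest thyroid hormone receptor target was Thrsp, a lipogenic protein, at 0.691.

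Other members of the receptor family and the coregulators were read for comparison. The 23 other nuclear receptors that reached 2 FPKM had a median ICC of 0.590, from the glucocorticoid receptor Nr3c1 (0.278, adjusted p = 0.0847, edgeR) to Pparg (0.775, between 0.10 FPKM in IL-2680 and 4.90 FPKM in IL-3348). Of 24 tested, 22 were called. The 17 coregulators, which are the proteins that receptors recruit to chromatin, had a median of 0.404, and 2 of 17 lay above the receptor median. They ran from Ncoa3 (0.144, adjusted p = 0.177, edgeR) to Carm1 (0.563), and 15 of 18 tested were called.

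**Figure D2:**
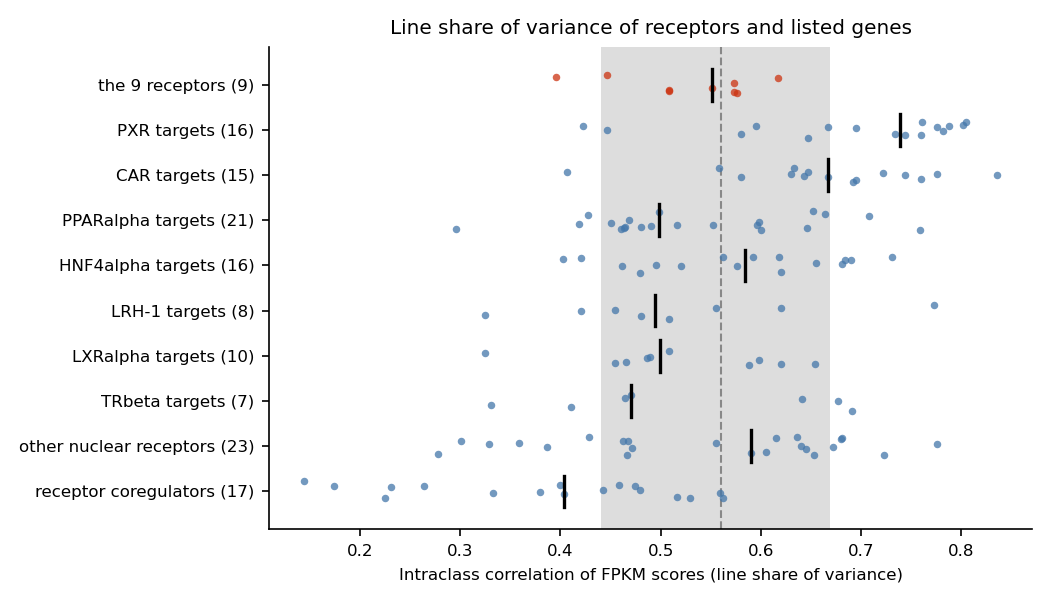
Intraclass correlation of the 9 receptors and of the genes in each target, receptor and coregulator list, 1 point per gene, with a bar at each median. The grey band is the interquartile range of 11284 genes (0.440 to 0.669) and the dashed line their median (0.560); the PXR and CAR target medians lie at 0.739 and 0.667 and the coregulator median at 0.404.

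The receptors also differed among lines in which isoform was used. RSEM gives each isoform's percent of its gene's abundance (IsoPct). The receptors have 54 annotated isoforms, of which 21 averaged at least 5% and 19 could be tested, having means between 5 and 95% in genes with more than 1 isoform. In limma's F test on the arcsine square root of the share, 12 of the 19 differed among lines (adjusted p under 0.05), beside 24.7% of the 15916 isoforms tested over all genes. Shares within a gene sum to 100%, so these calls are not independent. The median ICC of the 19 shares was 0.517, beside 0.246 (interquartile range 0.0702 to 0.424) over all isoforms. Nr1i2 has 1 isoform, Nr1i2-001, and so no share to vary.

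Nr1i3 had the most complex pattern, with 7 isoforms above 5%. 3 of them are annotated as coding: Nr1i3-001 (1074 coding bases) with a mean share of 25.6%, Nr1i3-002 (858 bases) with 14.4%, and Nr1i3-007 (1071 bases) with 5.11%. Their differences are short. The first sequence is exon 8 (capitals) with 15 flanking intron bases on each side, plus strand of chr1:173147742-173147877 in mm9. This exon of 106 bases is absent from Nr1i3-002, and its length is not a multiple of 3. The second is the start of exon 7, chr1:173147425-173147484, where capitals mark the 3 bases that are kept in Nr1i3-001 and left out of Nr1i3-007 by use of a downstream acceptor.
Nr1i3 exon 8: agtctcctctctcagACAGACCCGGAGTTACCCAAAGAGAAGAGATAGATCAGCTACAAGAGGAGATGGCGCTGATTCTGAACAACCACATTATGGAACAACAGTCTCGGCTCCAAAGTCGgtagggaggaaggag
Nr1i3 exon 7 start: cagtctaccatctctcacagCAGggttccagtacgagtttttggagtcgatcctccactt

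The share of Nr1i3-001 ran from 0 to 62.3% among mice, and of the 7 isoforms 5 were called among lines. The single IL-1141 mouse had none of Nr1i3-001 and the highest share of the exon 8-skipping Nr1i3-002, 29.1%. At the other end IL-4457 had 57.5% of Nr1i3-001, with a lower total of the gene. Nr1i3-002 differed among lines from 7.53% in IL-2011 (ICC 0.678, adjusted p = 0.00122, limma), and Nr1i3-001 had an ICC of 0.624 (adjusted p = 0.000235, limma). Nr1i3-007 was not called (adjusted p = 0.808, limma). The largest average share, 28.3%, belonged to Nr1i3-003, annotated as a target of nonsense-mediated decay, which ran from 12.8% in IL-4457 to 42.3% in IL-1513 and had the highest ICC of the receptor isoforms (0.775, adjusted p = 2e-06, limma). Nr1i3-005, also annotated as a decay target, averaged 5.12%, and the retained-intron isoforms Nr1i3-006 and Nr1i3-004 averaged 9.58% and 11.6%, the last not called (adjusted p = 0.068, limma).

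The 6 Nr1i3 isoforms without an annotated coding sequence made up a median of 54.8% of the gene's abundance, with mice between 22.4 and 77.8%. The level of the coding forms that hold exon 8 was therefore followed separately, as the summed FPKM of Nr1i3-001 and Nr1i3-007, whose coding sequences differ by the 3 bases shown above. This measure was chosen after the values had been seen. It ran from 1.27 through a median of 12.4 to 37.8 FPKM among mice, and line means averaged 13.8 ± 9.51 FPKM (SD, n = 29) with 4.48 FPKM between line mates. IL-1141 was lowest and IL-2126 highest, each with 1 mouse. Its ICC was 0.754 ± 0.0824, beside 0.573 ± 0.147 for the whole gene and 0.451 ± 0.194 for the summed non-coding isoforms. With Nr1i3-002 added, the sum of all coding isoforms had a similar ICC of 0.744 ± 0.0922. The difference between these ICCs was not tested.

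**Figure D3:**
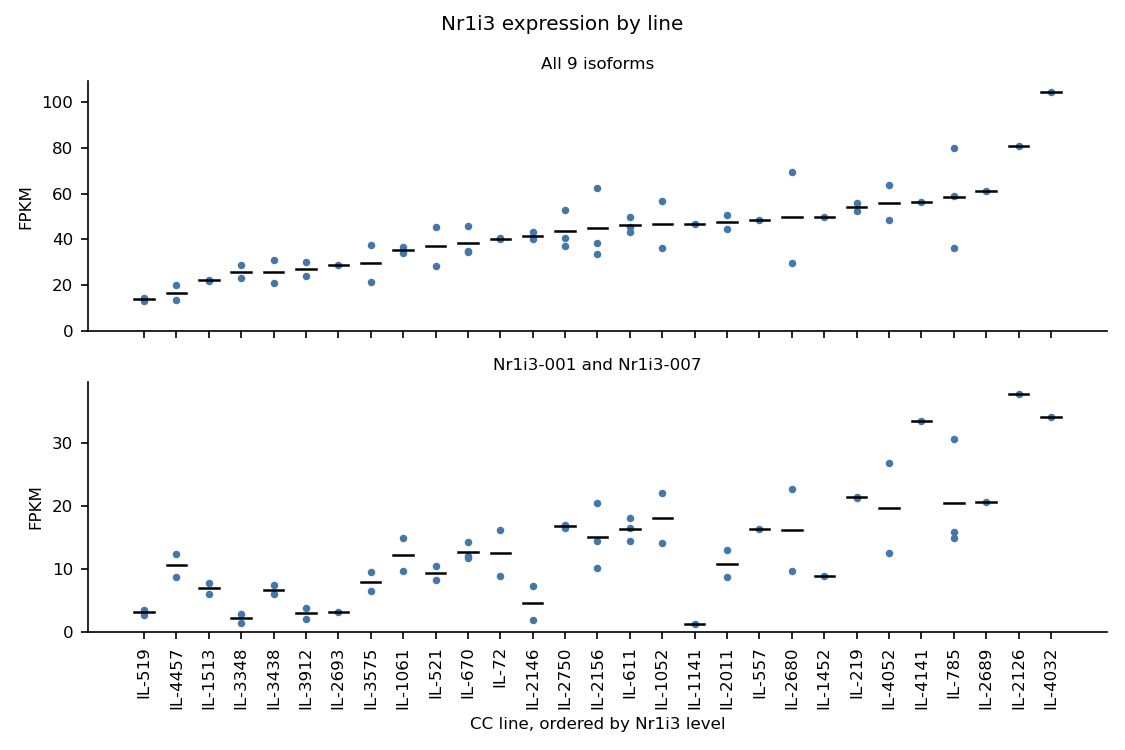
FPKM of Nr1i3 as a gene and as the sum of its isoforms Nr1i3-001 and Nr1i3-007, by CC line; dots are mice and bars line means. The gene runs from 13.8 FPKM in IL-519 to 104 FPKM in IL-4032, and the summed isoforms from 1.27 FPKM in IL-1141 to 37.8 FPKM in IL-2126.

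These shares rest on few distinguishing bases and on a locus that overlaps another gene. Nr1i3-001 has 1 base of its own, and Nr1i3-002 and Nr1i3-007 have none, so that RSEM had to divide them by junctions and fragment combinations. Tomm40l, a mitochondrial import protein gene on the opposite strand (mm9, chromosome 1, 173147933 to 173152645), shares 2900 bases with the span of Nr1i3. The authors ran RSEM under default parameters, which take no account of strand. The exons of Tomm40l cover 1481 bases of Nr1i3-003, 1392 of Nr1i3-006 and 257 of Nr1i3-001. Tomm40l itself had 2.13, 4.40 and 8.47 FPKM in its lowest, median and highest mouse. Over the 29 lines its log2 mean went against the share of Nr1i3-001 (r = -0.765, rho = -0.783; permutation p = 1e-05, the smallest possible, and 2e-05; adjusted p = 7e-05 over 7 isoforms; r = -0.759 without IL-557 and IL-4141). It went with the share of Nr1i3-003 (r = 0.644, rho = 0.631; permutation p = 0.00019 and 0.00031; adjusted p = 0.000443; r = 0.671 without the same lines). For Nr1i3-006, with 1392 overlapping bases, r was 0.0967 and rho 0.0118 (permutation p = 0.616 and 0.951, adjusted p = 0.616). For Nr1i3-004, with 413 overlapping bases, r was 0.670 and rho 0.722 (permutation p = 7e-05 and 2e-05, adjusted p = 0.000245). The shares of a gene's isoforms depend on each other, so r need not follow the overlap of each isoform. How far fragments of the 2 genes were exchanged was not tested.

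RSEM assigned most of the abundance of Hnf4a to 2 isoforms with different first exons and coding starts. Hnf4a-201 (1422 coding bases) averaged 77.5% and Hnf4a-202 (1347 coding bases) 21.6%. The coding bases of their first exons are shown on the plus strand of mm9, at chr2:163373041-163373155 and chr2:163362755-163362794, with the start codon in capitals.
Hnf4a-201 first exon coding: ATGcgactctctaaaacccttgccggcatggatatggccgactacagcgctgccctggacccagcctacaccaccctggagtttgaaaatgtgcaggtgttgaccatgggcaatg
Hnf4a-202 first exon coding: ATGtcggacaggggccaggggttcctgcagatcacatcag

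The share of Hnf4a-201 was 40.1%, 78.7% and 99.5% in the lowest, median and highest mouse, and it differed among lines (ICC 0.587, adjusted p = 0.00654, limma). The lowest line was IL-2126 at 40.1% (1 mouse) and the highest IL-2693 at 98.3% (1 mouse). Hnf4a-202 mirrored it, from 0.52 to 59.8% (ICC 0.548, adjusted p = 0.0124, limma). Line means had an SD of 15.3 percentage points, against 10.3 between line mates. The call on Hnf4a-201 rests on 232 bases of its own, and that on Hnf4a-202 on 40. Another gene, 0610008F07Rik, overlaps Hnf4a on the opposite strand over 34913 bases and had a median of 2.96 FPKM.

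Nr5a2 and Thrb also had alternative first exons, and their shares were less stable between line mates. The long isoform of Nr5a2 (ENSMUST00000027649, 1680 coding bases) averaged 83.0%, ran from 40.0 to 100% and was listed at 100% in 10 mice. The short isoform (ENSMUST00000168126) starts in another first exon that is entirely untranslated, and has 1497 coding bases. The coding bases of the first exon of the long isoform follow, in the direction of transcription from the minus strand of chr1:138856804-138856867, with the start codon in capitals.
Nr5a2 long isoform first exon coding: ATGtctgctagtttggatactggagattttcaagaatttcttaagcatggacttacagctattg

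The share of the long Nr5a2 isoform was not called among lines (ICC 0.199, adjusted p = 0.302, limma): line means had an SD of 14.1 percentage points and line mates one of 14.5. Thrb-201 averaged 58.5% (20.4 to 97.5%) and Thrb-202 37.4% (0.03 to 79.6%), and neither was called (ICC 0.153 and 0.121, adjusted p = 0.603 and 0.571, limma), although Thrb as a gene differed among lines. Thrb-202 is annotated with only 67 bases of its own, in 3 short pieces of which 2 are separated by an intron of 32 bases.

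Over line means the first-exon share of Hnf4a went with that of Thrb. Line means of Hnf4a-201 and Thrb-201 had r = 0.783 and rho = 0.758 (permutation p = 1e-05 for both, the smallest possible; adjusted p = 6e-05 over 6 relations), and r was 0.643 without IL-2126 and IL-557. Neither went with the long Nr5a2 isoform, with r = 0.0140 for Hnf4a (adjusted p = 0.963) and 0.0208 for Thrb (adjusted p = 0.963). The total fragment number was not related to the shares of Hnf4a-201 and Thrb-201 at an adjusted p under 0.05, by r or by rho. With the long Nr5a2 isoform it had r = -0.352 (permutation p = 0.0617, adjusted p = 0.185) and rho = -0.476 (permutation p = 0.00976, adjusted p = 0.0293), and r = -0.213 without IL-2126 and IL-2689, so that by rank this share was lower in lines with deeper libraries. Line mates could differ together as well. The IL-1513 mice had 43.1 and 80.7% of Hnf4a-201 with 36.8 and 71.3% of Thrb-201. In IL-3348 the order was opposite, at 81.3 and 72.5% with 55.2 and 63.2%. Thrb-201 was not called among lines, so its line means also carry differences between single mice. Whether the relation lies between lines or between single livers was not tested. These first-exon relations were chosen after the shares had been seen.

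**Figure D4:**
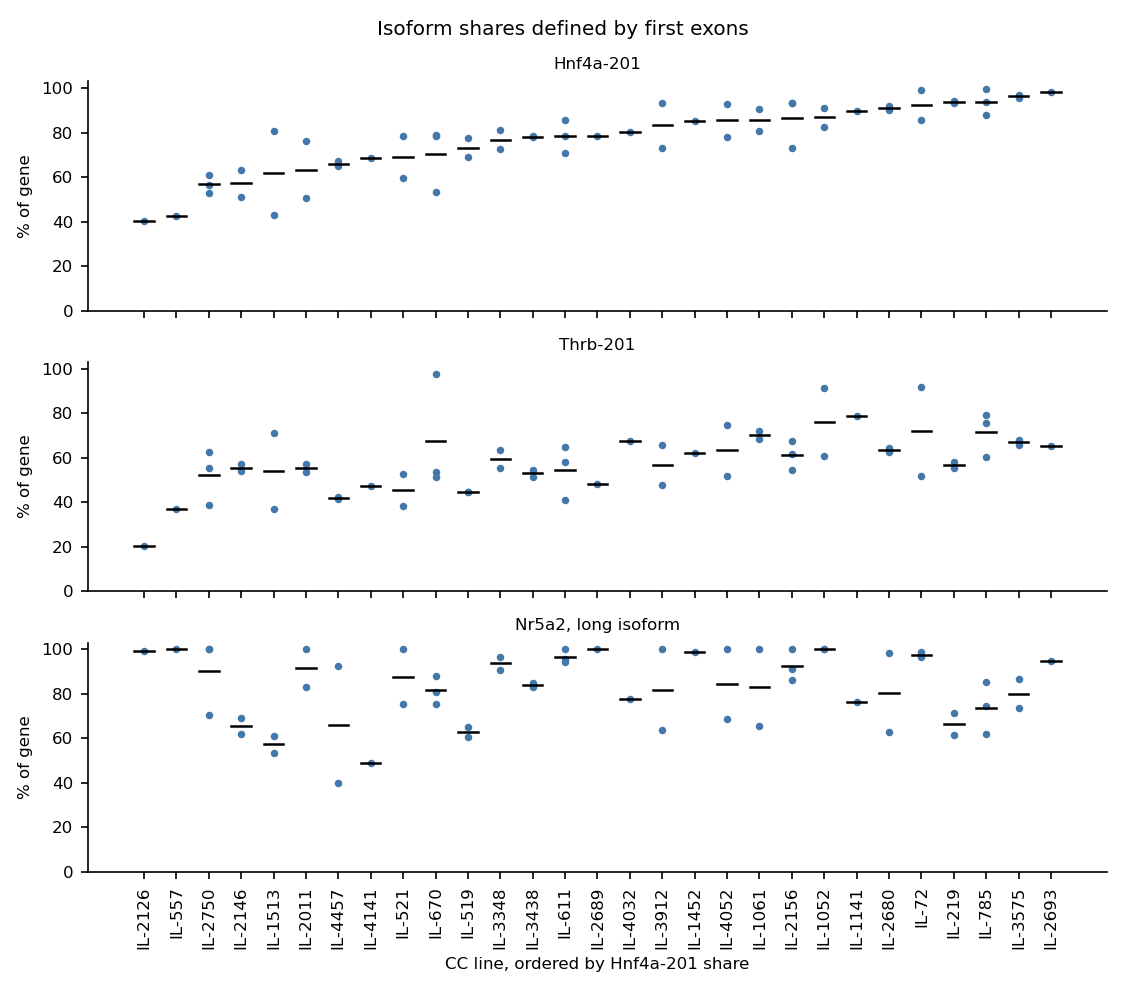
Share of each gene's abundance given to Hnf4a-201, Thrb-201 and the long Nr5a2 isoform, in percent, by CC line; dots are mice and bars line means. IL-2126 is lowest for both Hnf4a-201 (40.1%) and Thrb-201 (20.4%), and the long Nr5a2 isoform reaches 100% in 10 mice.

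Among the remaining receptors Rxra and Esr1 each had a single dominant isoform, while Ppara and Nr1h3 divided their abundance. Ppara-001 averaged 66.8% and Ppara-003 23.3%, 2 isoforms with the same coding length of 1404 bases. Both were called among lines (ICC 0.623 and 0.517, adjusted p = 0.00118 and 0.0206, limma), and Ppara-001 ran from 38.2% in IL-2126 to 81.6% in IL-557. Nr1h3-001 and Nr1h3-002 averaged 47.1% and 45.5%, also with the same coding length, and were called too (adjusted p = 0.0032 and 0.00532, limma), while Nr1h3-007 at 5.21% was not (adjusted p = 0.317). Rxra-001 averaged 97.4% and was above the range tested. Esr1-001 averaged 93.4%, and its lowest line was IL-4457 at 82.9% (adjusted p = 0.00876, limma; 0.0697 without IL-4457). None of 8 relations between a receptor's isoform share and its own level over the line means reached an adjusted p under 0.05 (permutation, lowest 0.821 for r and 0.250 for rho). For Nr1i3-001 r was 0.183 and rho 0.400, and for Nr1i3-003 r was -0.230 and rho -0.326, and without IL-519 and IL-4457 r was 0.486 and -0.495.

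The level of a receptor was then set against those of its listed targets over the 29 line means. In limma's test with adjustment over all 15284 other genes, 3 of the 97 receptor-target pairs were called, 2 with Hnf4a and 1 with Ppara. Hnf4a was called with Pklr, the liver pyruvate kinase, with a slope of 1.30 ± 0.36 (SE, log2 per log2), r = 0.555, rho = 0.537 (permutation p = 0.00165 and 0.00279), r = 0.512 without IL-4141 and IL-557, and adjusted p = 0.0205. It was also called with Apoc3, with a slope of 0.60 ± 0.18, r = 0.560, rho = 0.404 (permutation p = 0.00183 and 0.0308), r = 0.452 without the same lines, and adjusted p = 0.0333. Against Hnf4a 8.98% of all genes were called and against Ppara 9.03%, so that 2 of 16 and 1 of 21 targets are near the background.

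These calls depended on IL-4457. Without it the 3 called pairs were others: Nr1i2 with Por, the electron donor of the cytochromes P450 (adjusted p = 0.0137, beside 0.55% of all genes called), Hnf4a with Pck1, the gluconeogenic carboxykinase (adjusted p = 0.000679), and Hnf4a with Tat, tyrosine aminotransferase (adjusted p = 0.0189, beside 5.25% of all genes called against Hnf4a). Pklr and Apoc3 then had adjusted p of 0.0792 and 0.129 (limma), and the Ppara pair was not called. Without IL-4457 and the single IL-2126 mouse only Pck1 and Tat were called, with Hnf4a (adjusted p = 0.000777 and 0.0194), and the call on Por was lost. With all lines Por had r = 0.565 and rho = 0.652 with Nr1i2 (permutation p = 0.0016 and 0.00018; r = 0.603 without IL-2126 and IL-4457) and an adjusted p of 0.106.

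For the other receptors no target was called by limma with all lines. PXR targets had 10 of 17 positive correlations with Nr1i2 (median r 0.110), beside 46.9% of all genes. None was called, beside 0.0851% of all genes, and 3 had an unadjusted p under 0.05, beside 10.7%. CAR targets had 14 of 16 positive with Nr1i3 (median r 0.304), beside 45.9% of all genes. Of these targets none was called, beside 0% of all genes, and 6 had an unadjusted p under 0.05, beside 5.64%. The strongest was Cyp2c37, a cytochrome P450 (r = 0.576, rho = 0.523; permutation p = 0.00094 and 0.0041; r = 0.484 without IL-4457 and IL-519; adjusted p = 0.484). PPARα and HNF4α targets had 16 of 21 and 12 of 16 positive (median r 0.127 and 0.236), beside 50.7% and 50.5% of all genes. At an unadjusted p under 0.05 there were 4 and 5, beside 24.6% and 23.6% of all genes.

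LRH-1 targets had 5 of 8 positive with Nr5a2 (median r 0.0714), beside 51.5% of all genes. None was called, beside 2.61%, and 2 had an unadjusted p under 0.05, beside 20% of all genes. Scarb1 was the strongest (r = 0.493, rho = 0.4995; permutation p = 0.00617 and 0.00651; r = 0.467 without IL-2126 and IL-1513; adjusted p = 0.0877). LXRα targets had 4 of 11 positive with Nr1h3 (median r -0.0334), beside 47.9% of all genes. Here none was called, beside 0.504%, and 1 had an unadjusted p under 0.05, beside 18.6%. This was Mylip, an LXR-induced ubiquitin ligase, at r = -0.400 and rho = -0.293 (permutation p = 0.0365 and 0.122; r = -0.423 without IL-557 and IL-2750; adjusted p = 0.209). Thyroid hormone receptor targets had 3 of 8 positive with Thrb (median r -0.0208), beside 53.1% of all genes. Of these targets none was called, beside 0%, and 2 had an unadjusted p under 0.05, beside 12.9%. Gpd2, the mitochondrial glycerol phosphate dehydrogenase, was the strongest (r = 0.568, rho = 0.512; permutation p = 0.00142 and 0.0052; r = 0.453 without IL-2146 and IL-2689; adjusted p = 0.138).

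With the summed Nr1i3-001 and Nr1i3-007 in place of the gene, 3 of the 16 CAR targets were called by limma, beside 0.0458% of all genes (7 of 15284), and 8 had an unadjusted p under 0.05, beside 6.75%. Cyp2c29, an abundant Cyp2c enzyme with 265 to 2527 FPKM, had r = 0.768 and rho = 0.736 (permutation p = 1e-05 for both, the smallest possible), with a slope of 0.55 ± 0.09 and an adjusted p of 0.00322. Cyp2b10, the classical CAR-induced P450 (0.07 to 71.4 FPKM), had r = 0.689 and a slope of 1.43 ± 0.28 (adjusted p = 0.0314), and Cyp2c54 had r = 0.693 and a slope of 0.51 ± 0.10 (adjusted p = 0.0314). Without IL-1141 and IL-3348, the lines farthest from the median, r was 0.742, 0.651 and 0.663. In all, 15 of the 16 targets were positive (median r 0.355, beside -0.00373 over all genes). The whole gene in FPKM also had 15 of 16 positive (median r 0.288, beside -0.0206), and 6 with an unadjusted p under 0.05 (limma), beside 4.56%. Against the whole gene, r was lower for Cyp2c29 (0.454) and Cyp2b10 (0.441) than against the sum. It was higher for others, such as Abcc3 (0.406, beside -0.0164 with the sum) and Por (0.320, beside 0.101).

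This measure was 1 of 8 of Nr1i3 that were tried after the data had been seen, and the whole gene called none of the targets. The other 4 genes called were Tomm40l, which overlaps Nr1i3 (r = -0.766), Mndal, 2637 kb away on chromosome 1 (r = 0.764), Mmp15 (r = -0.735) and Gng7 (r = 0.734, at most 0.58 FPKM). Leaving out 1 mouse at a time, Cyp2c29 stayed called in 55 of 55 fits, Cyp2b10 in 42 and Cyp2c54 in 46. Only 1 target was called over the lines with at least 2 mice, and also when 1 mouse was left out of IL-2126, IL-2689, IL-2146, IL-3912 or IL-4141. With target levels as log2(FPKM + 1) 1 target was called as well, Cyp2b10 and Cyp2c54 both having an adjusted p of 0.0573, and without IL-1052 and IL-2750 2 were called, Cyp2c54 having 0.0741 (limma). Cyp2c genes are near-identical copies whose shared fragments RSEM divides, so the separate values for Cyp2c29, Cyp2c37 and Cyp2c54 are uncertain.

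**Figure D5:**
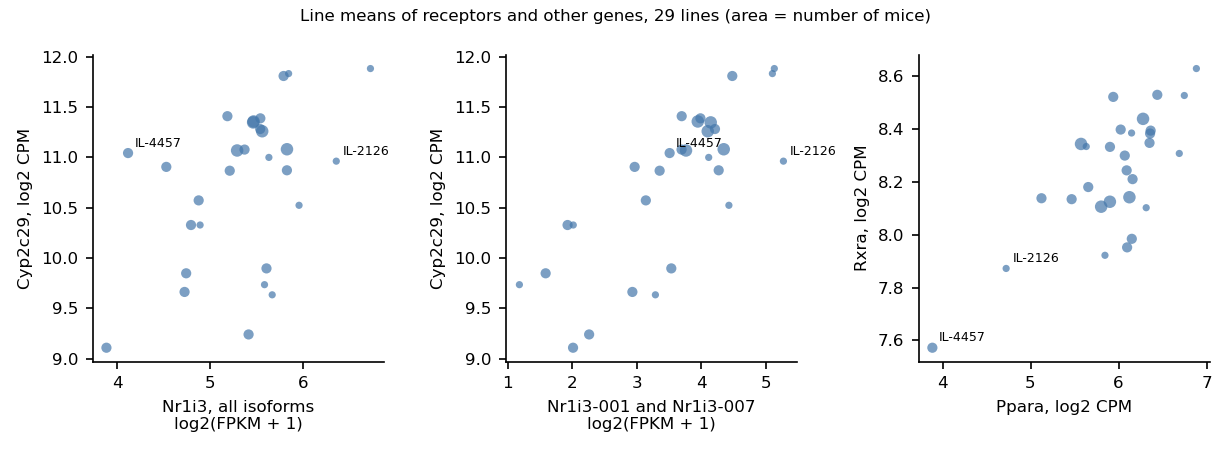
Line means plotted against each other on log2 scales, 1 point per CC line with the area giving the number of mice: Cyp2c29 against Nr1i3 as a gene (r = 0.454), Cyp2c29 against the sum of Nr1i3-001 and Nr1i3-007 (r = 0.768), and Rxra against Ppara (r = 0.731). In the last panel IL-4457 lies at the lower left, and r is 0.481 without IL-4457 and IL-2126.

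The genes whose line means were most like those of each receptor were taken as the 3 highest Pearson's r over 29 lines (log2 CPM), as a description. Hnf4a had the closest, with Lpin2 (r = 0.912), Supt6h (0.880) and Cog3 (0.835), followed by Ppara with Pdp2 (0.901), Setd1b (0.879) and Rab43 (0.858). Rxra was most like Neurl4 (0.833), Kif1c (0.809) and Sbf1 (0.806), and Nr5a2 most like Slc10a5 (0.783), Cnot1 (0.783) and 4921513D23Rik (0.782). Nr1i2 was most like Tor1b (0.778), Eci2 (0.714) and Lrp4 (0.712).

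For Nr1h3 these genes were Sssca1 (0.776), Sirt2 (0.764) and Lemd2 (0.744), and for Nr1i3 Gm4724 (0.718), Tmem14c (0.630) and Psg16 (0.617). For Thrb they were Ngly1 (0.732), Stam (0.713) and Slc4a7 (0.697), of which Ngly1 and Slc4a7 lie 1349 and 2861 kb from Thrb on chromosome 14. Esr1 had the weakest likeness, with Dhcr7 (0.635) and Nsdhl (0.618) among its 3 highest, both of which encode enzymes of cholesterol synthesis. No gene was called against Esr1, Nr1i3 or Thrb (limma). The lowest adjusted p among the genes most like them was 0.810, 0.0855 and 0.113. The genes named for each receptor were the top of 15284, and the points share the same libraries.

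None of the receptors was called with the line mean of body weight or of age by limma, and none of the 15285 genes was (0%). At an unadjusted p under 0.05 there were 0 receptors for weight, beside 8.86% of all genes. For age limma gave 2 over the 29 lines, Nr1i2 with an unadjusted p of 0.0412 and Nr5a2 with 0.0229, beside 6.81%. No receptor level was called by limma with the fragment number or with the summed level of a marker list, over the line means. The lowest adjusted p was 0.0937, for Nr1h3 with the 5 stellate cell markers (slope -0.11 ± 0.04, log2 per log2), whose sum ran from 16.0 to 133 FPKM. The cholangiocyte markers (5 of 5 found, 6.50 to 208 FPKM) had a slope of -0.40 ± 0.09 with Ppara (unadjusted p = 0.000137, adjusted p = 0.125, limma). Their sum had a median of 27.5 FPKM. Krt19, Krt7, Epcam and Sox9 each had a median under 1 FPKM, so that this sum was mainly Spp1. No listed marker had a median of 0, and the part of the markers in the results was not tested. The libraries carry no label for a processing batch, so a batch was not tested.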

How the data were processed

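Liver RNA of 55 naive male mice of 29 CC lines was sequenced by the authors as paired 50-base reads from a stranded polyA protocol. Per the labels and the study's methods, the authors quantified genes and isoforms of Ensembl release 67 on mm9 with RSEM 1.2.18 and Bowtie 2 under default parameters, which take no account of strand. The deposited tables hold the expected count, TPM and FPKM of each gene and isoform, and the deposited IsoPct is an isoform's percent of its gene's abundance. RSEM divides fragments shared by isoforms or paralogs by its model. Such expected counts carry an error beyond counting error.

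The line of each mouse was taken from the labels. Line differences were tested by edgeR 4.0.16 (TMM, quasi-likelihood F test) on rounded expected counts of the 47 mice with a line mate, and isoform shares and regressions over line means by limma 3.58.1. All p-values across genes or isoforms were adjusted by Benjamini-Hochberg over all features tested, with a threshold of 0.05. The ICC was a one-way estimate on van der Waerden scores of FPKM for genes reaching 2 FPKM. Permutation p-values were two-sided with 100000 permutations. Sequences were read from the NCBIM37 (mm9) genome, with exons from GENCODE M1, in which the lengths of all 54 receptor isoforms matched the deposited ones. Per mouse, 20542671 to 33953036 fragments gave each receptor at least 242 fragments.

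The members and gene lists were chosen with earlier results of these data known. Genes named were the 9 receptors, their isoforms averaging at least 5%, the targets with the highest and lowest ICC and the largest absolute r in each list, the 3 genes most like each receptor, and the highest and lowest ICC in the other lists. The calls for the summed Nr1i3-001 and Nr1i3-007, the pairs called without IL-4457, and genes overlapping Nr1i3 or Hnf4a were named after their values had been seen. Some genes that this rule names are not reported here. Hepatocyte marker Tf could not be matched by symbol. Alternatives were DESeq2 1.42.0 and its size factors, other filters, pseudocounts and units, leaving out each mouse, the lines with 1 mouse, or the lines IL-1052 and IL-2750. The scripts were tested on simulated data.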

Additional observations from a re-analysis of the deposited data

How the results depend on the processing

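All 9 receptors were called among lines under each alternative named in the methods and with any 1 mouse left out (9 to 9), and 8 without IL-4457, a setting added after the data had been seen. The median ICC of the receptors lay between 0.4996 (without IL-4457) and 0.582 (log2 CPM), and between 0.518 and 0.588 with 1 mouse left out, while on log2 CPM single values were 0.634 for Ppara, 0.668 for Rxra and 0.407 for Thrb, and the cause was not tested. Target lists were given an ICC on the FPKM scale only. Called isoforms were 12 of 19 in the main test, beside 24.7% of all isoforms, and 11 to 13 of the same 19 with 1 mouse left out. Over the alternatives they numbered 11 to 17. These included a wider range of mean shares, which tests more isoforms, so that not all of these counts are out of 19.

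The 3 receptor-target pairs called became 1 without a filter on low counts, 1 over the lines with at least 2 mice, and 6 with the summed Nr1i3-001 and Nr1i3-007 in place of Nr1i3. With 1 mouse left out they were 2 to 4. The Ppara pair missed the threshold in 29 of 62 alternatives, Hnf4a with Apoc3 in 9 (adjusted p 0.0202 to 0.145) and Hnf4a with Pklr in 2 (0.00844 to 0.0916). No receptor was called with body weight or age (0 to 0) in any of the limma alternatives run. No paired analysis was possible because the mouse numbers in the labels are not shared between lines. Whether depth or the number of an isoform's own bases limits the calls on isoform shares was not tested.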
